A study of Drosophila melanogaster with 13 samples.

Results

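The 10 genes described here encode transcription factors and cofactors that build the fly eye and set which light-sensing pigment each photoreceptor makes: gl, Pph13, oc, ss, sens, pros, dve, so, eya and ey. They were taken by gene name from the 18344 genes with a deposited value, and each name matched 1 gene. RNA came from whole heads of Drosophila melanogaster adults aged 5 days, from crosses kept at 25 °C. Per the labels, 5 libraries had the genotype GMR-Gal4/UAS-Rab5 RNAi, 4 had GMR-Gal4/UAS-Rab7 RNAi, and 4 controls had GMR-Gal4/WT, with the driver and no RNAi construct. The GMR driver was therefore present in all 13 libraries, and the labels give retina of the pupa and eye of the adult as the tissues where it acts. GMR is an artificial enhancer made of binding sites for Glass, the product of gl, so the driver itself depends on 1 of the 10 genes. The labels name 1 RNAi genotype per target and neither sex nor batch, and they do not say whether libraries of a group came from separate crosses, so the p-values reflect spread among these libraries that may be technical only.

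Eye formation in the fly starts with the Pax6 protein Eyeless (ey), which turns on sine oculis (so) and eyes absent (eya), whose products bind each other. Glass (gl), a zinc finger protein, then drives photoreceptor differentiation, and the homeodomain proteins Pph13 and Orthodenticle (oc) complete it by building the light-gathering rhabdomere and switching on opsin genes. Spineless (ss), Defective proventriculus (dve), Prospero (pros) and Senseless (sens) choose among opsins or among the R7 and R8 photoreceptor types. Several of the 10 genes also work outside the compound eye, ey in the mushroom bodies of the brain, oc in the ocelli and brain, ss in the antenna and pros widely in neurons, and a whole head averages over all of these cells.

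Values are FPKM, reads per length of gene and per depth of library, and could be turned back into whole reads. Recovered reads on genes ran from 17138630 to 21410768 per library. Rab5 was lower in Rab5 RNAi, by a log2 difference of -0.99 (SE 0.09, limma adjusted p = 1.9e-05). In the libraries labelled Rab7 RNAi, Rab7 differed from controls by -0.04 (SE 0.08, limma adjusted p = 0.88), so the label was not checked by its target, and they are called the Rab7-labelled libraries. All 15 photoreceptor markers, among them opsins and the channel trp, were above 1 FPKM in every library. Their summed level ran from 1917 to 9205 FPKM in Rab5 RNAi, from 18989 to 41813 FPKM in Rab7-labelled libraries and from 35769 to 46871 FPKM in controls. Libraries of every group also differed in muscle RNA. Act57B, a muscle actin, was above 1000 FPKM in Rab5 RNAi replicates 1 and 5, Rab7-labelled replicates 1 and 4 and control replicate 4, called Act57B-high, and below it in the other 8, called Act57B-low. The summed level of 8 muscle markers was 3702 to 3845 FPKM in the Act57B-high libraries and 1990 to 2822 FPKM in the Act57B-low ones. Act57B is 1 of the 8, so this sum is partly set by the split. Mhc, another of them, had 502 to 547 FPKM in Act57B-high libraries and 282 to 449 FPKM in Act57B-low ones. Act87E, Tm2 and Mlc2 also separated the classes, while up, wupA and TpnC73F overlapped. TpnC73F was highest in the Act57B-low Rab5 RNAi replicate 2 (15.8 FPKM).

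In control heads the 10 genes covered a wide range of levels per kilobase. Pph13 was highest with 32.1 FPKM ± 2.65, followed by gl with 23.9 ± 4.28, pros with 21.7 ± 2.01 and ey with 16.8 ± 1.56 FPKM (SD, n = 4). Next came eya with 12.9 ± 2.25, so with 12.9 ± 1.0, oc with 8.86 ± 0.169 and dve with 6.24 ± 0.721 FPKM. At the low end ss had 1.48 ± 0.267 and sens 0.326 ± 0.0762 FPKM. The ranges of eya and so overlapped, and so did those of gl with Pph13 above it and pros below it and those of ey and eya, while pros, so, oc, dve and ss were each above the next gene in the order in every pair of libraries. In Rab5 RNAi the order changed at the top: pros led with 23.5 FPKM ± 3.41, ey followed with 18.8 ± 2.93 and gl with 17.8 ± 4.72, and Pph13 came only after these with 14.3 ± 6.31 FPKM (SD, n = 5). These 4 had overlapping ranges from each to the next. In Rab7-labelled libraries Pph13 led with 37.7 FPKM ± 10.8, then gl with 28.3 ± 2.03 and pros with 19.5 ± 1.85 FPKM (SD, n = 4).

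**Figure D1:**
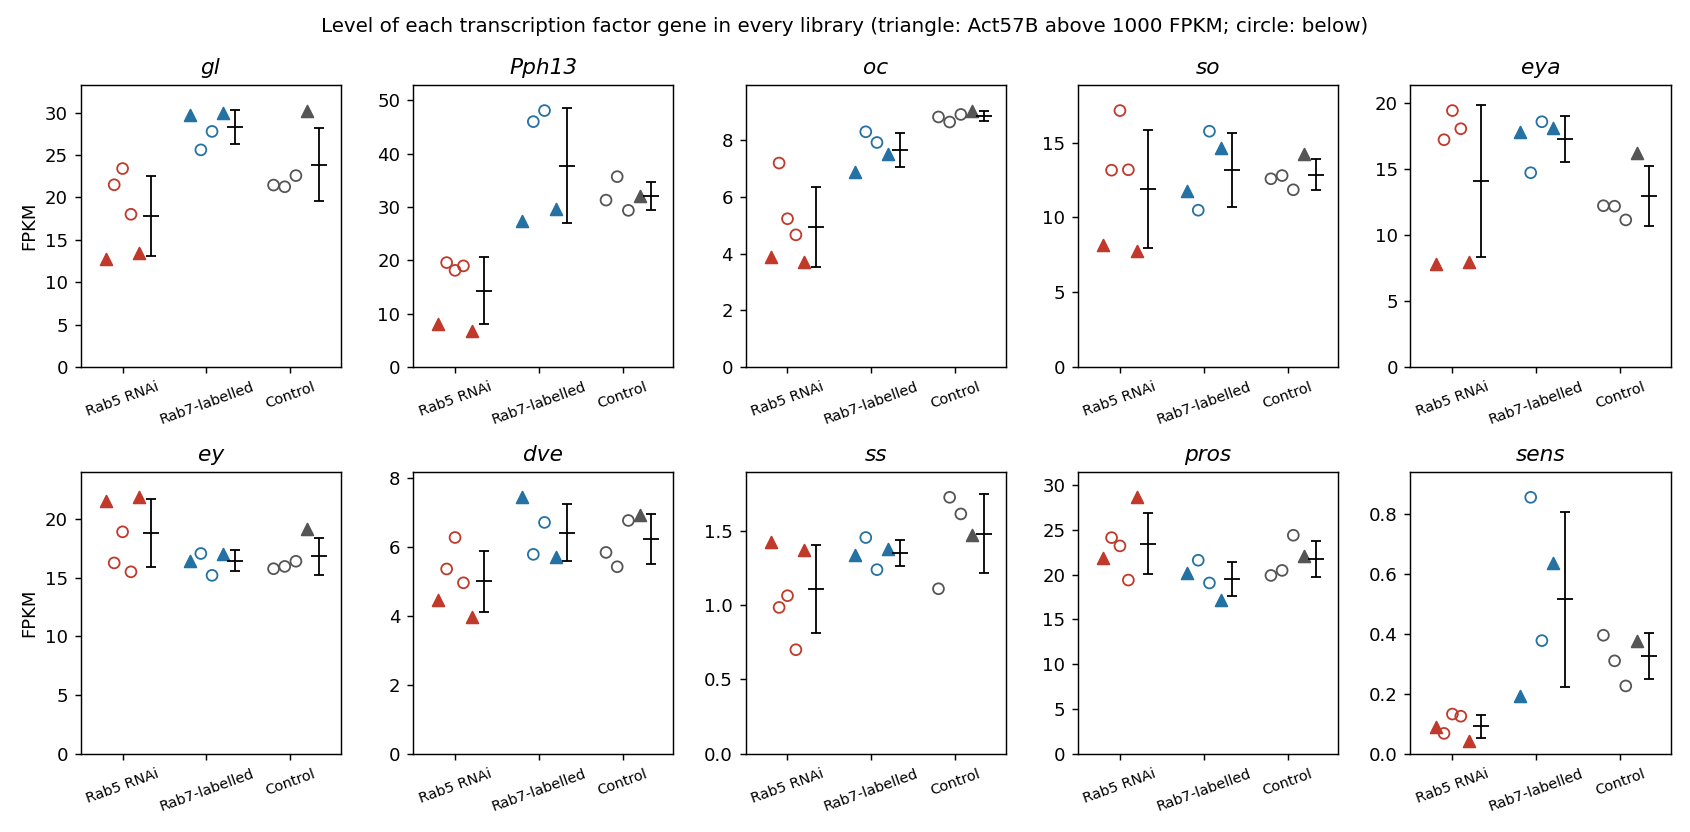
FPKM of each of the 10 genes in every library of the 3 groups; triangles are Act57B-high libraries, open circles Act57B-low ones, and bars give mean and SD (n = 5 Rab5 RNAi, 4 Rab7-labelled, 4 control). Pph13, oc and sens lie below all controls in every Rab5 RNAi library. Of the 10038 genes tested, which leave out sens, 9.69% do so. The genes eya and so split into a low pair and a high trio in Rab5 RNAi.

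The first comparison sets Rab5 RNAi against controls. Of the 9 genes above the filter on low values, 2 fell, Pph13 and oc, and the other 7 did not pass. Over all 10038 genes tested 17.5% were called at a limma adjusted p below 0.05 and 9.28% were called lower, so 2 of 9 is a count near that of all genes. The median log2 difference was -0.24 over the 9 and -0.01 over all genes tested. Differences are between group means of log2(FPKM + 1), a scale that understates the changes of low genes.

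Pph13 (FBgn0023489, 2L 577486 to 579549, plus strand), the homeodomain protein that photoreceptors need to make a normal rhabdomere, had the largest difference of the 9. It was at 8.10, 19.6, 18.1, 19.0 and 6.76 FPKM in Rab5 RNAi replicates 1 to 5, against 31.3, 35.7, 29.4 and 32.1 FPKM in controls 1 to 4. All 5 Rab5 RNAi libraries lay below all controls, as 9.69% of all genes did, and within Rab5 RNAi replicates 1 and 5 were at less than 0.5 of the level of the other 3. Pph13 differed by -1.23 on the log2 scale (SE 0.30, 95% interval -1.87 to -0.59, limma adjusted p = 0.013), and it stayed called under all 24 alternatives. In heads, fewer cells of a type and less RNA per cell cannot be told apart, here and in every result below.

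oc (FBgn0004102, X 8630159 to 8650681, minus strand), known in the retina as an activator of opsin genes and named for the loss of ocelli in its mutant, was the other gene that fell. It had 3.88, 7.20, 5.23, 4.66 and 3.69 FPKM in Rab5 RNAi, against 8.83, 8.65, 8.91 and 9.05 FPKM in controls. The controls were close together and no Rab5 RNAi library reached them. On the log2 scale oc differed by -0.76 (SE 0.14, 95% interval -1.06 to -0.47, limma adjusted p = 0.0019), again under all 24 alternatives. Rh2, the opsin of the ocelli, had 0.195 to 1.34 FPKM in Rab5 RNAi and 1.73 to 19.4 FPKM in controls. The lowest of these was control 4 alone, with the other 3 at 17.4 to 19.4 FPKM, and control 4 had the highest oc of the controls. Whether the ocelli have a part in the oc result was not tested.

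gl (FBgn0004618, 3R 18367927 to 18372738, minus strand) had 12.8, 21.5, 23.4, 18.0 and 13.5 FPKM in Rab5 RNAi, against 21.4, 21.2, 22.6 and 30.2 FPKM in controls. The groups overlapped through replicates 2 and 3 of Rab5 RNAi. The log2 difference of -0.43 (SE 0.17, limma adjusted p = 0.096) did not pass, but without Rab5 RNAi replicate 3 it did (log2 -0.53, limma adjusted p = 0.038), where 15.4% of all genes were called.

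The early eye genes did not pass over all libraries. eya (FBgn0000320, 2L 6527447 to 6546976, minus strand), a coactivator with a phosphatase domain, had 7.77, 17.2, 19.4, 18.0 and 7.98 FPKM in Rab5 RNAi, against 12.2, 12.2, 11.1 and 16.2 FPKM in controls. The Rab5 RNAi libraries lay on both sides of the controls, replicates 1 and 5 below all 4 and the other 3 above all 4. The mean difference of 0.03 on the log2 scale (95% interval -0.51 to 0.57, limma adjusted p = 0.95) averages over both. so (FBgn0003460, 2R 7419350 to 7434872, plus strand), the partner of eya, had 8.14, 13.2, 17.2, 13.2 and 7.76 FPKM in Rab5 RNAi, against 12.6, 12.8, 11.9 and 14.3 FPKM in controls. The same pair of libraries was low, and so differed by -0.16 on the log2 scale (95% interval -0.58 to 0.26, limma adjusted p = 0.63). ey (FBgn0005558, 4 697689 to 721173, plus strand) ran the other way, with its higher values in replicates 1 and 5: it had 21.6, 16.3, 18.9, 15.5 and 21.8 FPKM in Rab5 RNAi, against 15.8, 16.0, 16.4 and 19.1 FPKM in controls. ey differed by 0.14 (95% interval -0.08 to 0.37, limma adjusted p = 0.37).

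Of the genes that choose among opsins or photoreceptor types, dve, ss and pros did not pass in this comparison. dve (FBgn0020307, 2R 22243963 to 22286469, plus strand), a homeodomain repressor of opsin genes, had 3.97 to 6.28 FPKM in Rab5 RNAi with a median of 4.96, and 5.43 to 6.92 FPKM in controls with a median of 6.31. dve differed by -0.28 on the log2 scale (95% interval -0.53 to -0.02, limma adjusted p = 0.13). ss (FBgn0003513, 3R 16374434 to 16403690, minus strand), which sets the R7 subtype that makes the opsin Rh4, had 1.42, 0.983, 1.06, 0.699 and 1.37 FPKM in Rab5 RNAi, against 1.11, 1.72, 1.61 and 1.47 FPKM in controls. These rested on 71 to 136 reads per library in Rab5 RNAi and 107 to 165 in controls, and the groups overlapped (log2 -0.24, 95% interval -0.52 to 0.04, limma adjusted p = 0.24). pros (FBgn0004595, 3R 11328480 to 11407627, plus strand), a factor of R7 cells and of many other neurons, had 21.9, 24.1, 23.2, 19.4 and 28.6 FPKM in Rab5 RNAi, against 19.9, 20.5, 24.4 and 22.1 FPKM in controls. pros differed by 0.10 on the log2 scale (95% interval -0.12 to 0.32, limma adjusted p = 0.56). A noncoding gene on the opposite strand shares 0.289% of the annotated exon bases of pros, and no other member shares exon bases with another annotated gene.

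sens (FBgn0002573, 3L 13396228 to 13401125, minus strand), the zinc finger protein of R8 photoreceptors, had a mean under 1 FPKM and was not in the fit. It had 4, 3, 6, 6 and 2 reads in Rab5 RNAi, which is 0.0434 to 0.132 FPKM, against 18, 14, 10 and 16 reads in controls, which is 0.226 to 0.395 FPKM. Every Rab5 RNAi library was below every control. The share of genes with so few reads that separate in this way was not computed. Over the group this was 21 reads in Rab5 RNAi (95% Poisson interval 13 to 32.1) and 58 in controls (44.0 to 75.0), intervals that cover counting error only. Mean levels were 0.0915 ± 0.0377 FPKM in the 5 Rab5 RNAi libraries and 0.326 ± 0.0762 FPKM in the 4 controls (SD), with an unadjusted p of 0.016 in a two-sided exact permutation test, the smallest that 5 against 4 libraries allow. In a fit of the 13776 genes with a mean of at least 0.1 FPKM, of which 13.5% were called, sens did not pass (log2 -0.28, limma adjusted p = 0.14).

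**Figure D2:**
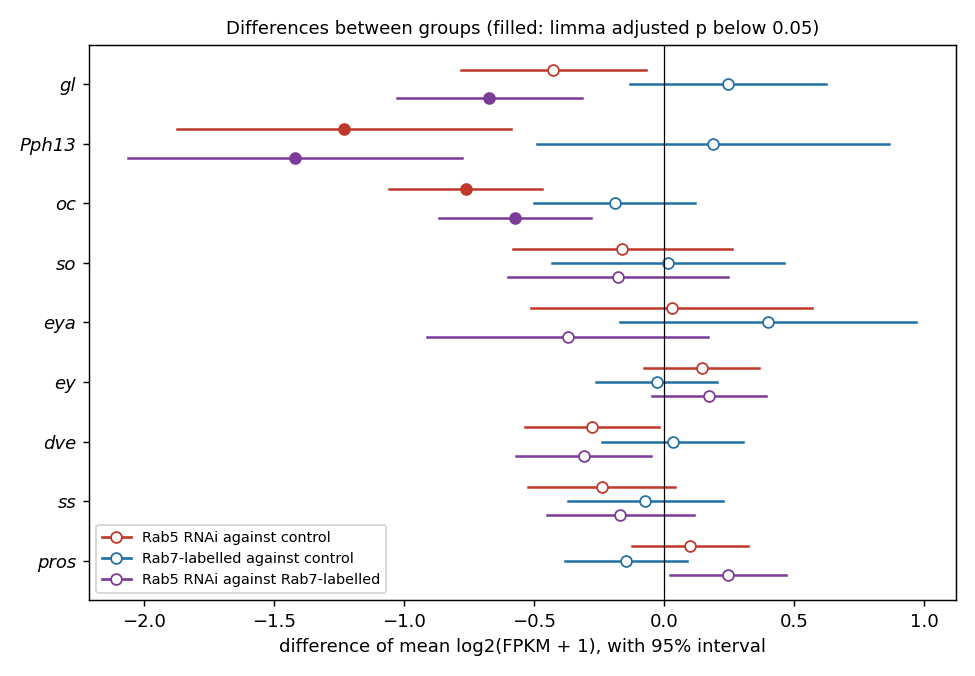
Difference of mean log2(FPKM + 1) for 9 genes in 3 comparisons, with 95% intervals from limma; filled points have an adjusted p below 0.05. Pph13 and oc are filled in both comparisons that involve Rab5 RNAi, gl only against the Rab7-labelled libraries, and no gene is filled for Rab7-labelled against control.

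Most photoreceptor markers fell in Rab5 RNAi against controls, and by more than the 9 genes did. Of the 15 markers 14 fell. The median log2 difference of the 15 was -2.51, beside -0.24 over the 9 genes, -1.23 for Pph13 and -0.76 for oc. The remaining marker, the opsin Rh6, had -0.49 and did not pass (limma adjusted p = 0.14). Relative to the mean log2(FPKM + 1) of the 15 markers, Pph13 was higher in Rab5 RNAi by 1.25 and oc by 1.72. The marker mean itself had a log2 difference of -2.48, so any gene that fell by less is higher on this scale. All 10 genes were higher on it without overlap, which follows from the fall of the markers and is no result about these genes. Some markers of other cell types were called as well. Of 4 general neuron markers 1 fell (nSyb, log2 -0.57, limma adjusted p = 0.0042), and of 3 fat body markers tested 2 fell. Of 3 mushroom body markers 1 rose (Fas2, log2 0.37, limma adjusted p = 0.0059). No glia, muscle or hemocyte marker passed. The part of any of these markers in the results for Pph13 and oc was not tested.

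The split within Rab5 RNAi followed the Act57B classes. In Act57B-high Rab5 RNAi libraries eya had 7.77 and 7.98 FPKM, against 17.2 to 19.4 FPKM in the Act57B-low ones, a log2 difference of -1.11. Pph13, so, gl, oc and dve were also lower in both Act57B-high Rab5 RNAi libraries than in all 3 Act57B-low ones, by -1.24, -0.78, -0.63, -0.47 and -0.32 on the log2 scale, whereas ey and ss were higher, by 0.35 and 0.33. The share of all genes that separate these libraries was not computed. A split of 2 against 3 libraries can be complete by chance, so these values are a description only. The main opsin ninaE was at 849 and 686 FPKM in these 2 libraries and at 3292 to 4918 FPKM in the other 3. A lower ninaE in Act57B-high libraries was not particular to Rab5 RNAi. Rab7-labelled libraries had 10202 and 11057 FPKM in the Act57B-high ones and 23199 and 26358 FPKM in the Act57B-low ones. The Act57B-high control had 21895 FPKM, against 26519 to 30165 FPKM in the other controls. Pph13 was also lower in both Act57B-high Rab7-labelled libraries, by -0.71 on the log2 scale.

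The other groups did not show that split for eya. Act57B-high Rab7-labelled libraries had 17.8 and 18.1 FPKM of eya, against 14.7 and 18.6 FPKM in Act57B-low ones, and the Act57B-high control had 16.2 FPKM, against 11.1 to 12.2 FPKM in the other 3. A fit with an interaction, chosen after this split was seen in the same libraries and so no independent evidence of it, tested whether the Act57B-high minus Act57B-low difference varied between groups. Against Rab7-labelled libraries, with 8.34% of all genes called, it was lower in Rab5 RNAi for eya (-1.23, SE 0.15, limma adjusted p = 3.6e-04), gl (-0.79, SE 0.15, adjusted p = 0.0060) and Pph13 (-0.54, SE 0.15, adjusted p = 0.043), while so did not pass (-0.81, adjusted p = 0.060). Against controls, with 8.18% of all genes called, the test rests on 1 Act57B-high control, which has no spread of its own and was assumed to vary like the other groups. There eya, Pph13, gl and so passed, and the call for the gene so depends on that 1 library. Between Rab7-labelled libraries and controls none of the 9 passed, where 0.149% of all genes did. Muscle RNA and the level of photoreceptor markers both moved with the 2 libraries, and their part in the split was not tested.

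**Figure D3:**
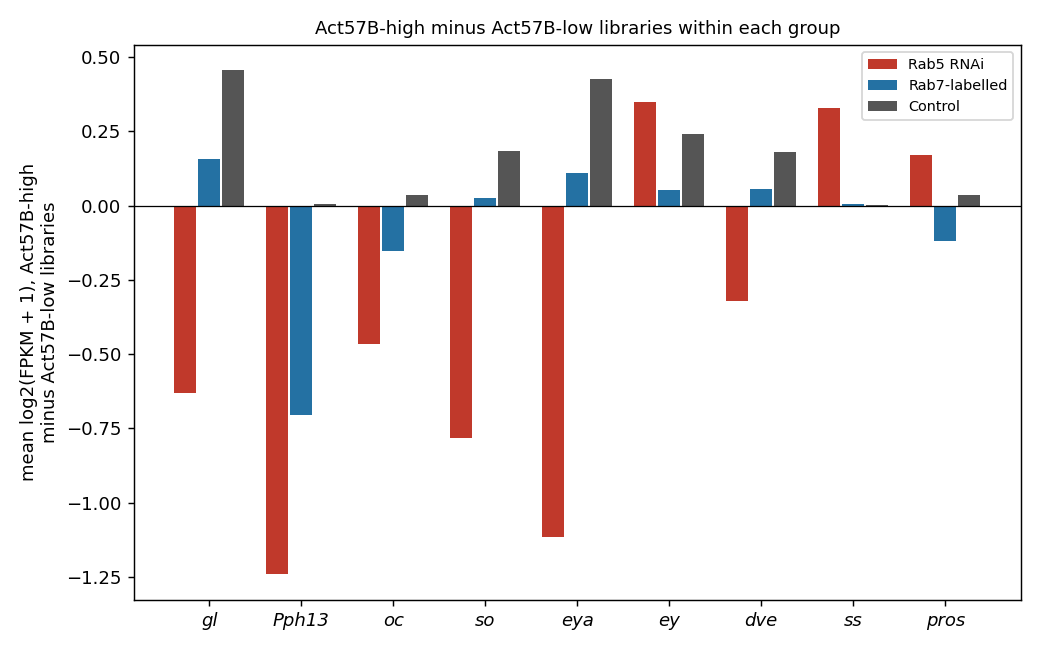
Mean log2(FPKM + 1) in Act57B-high minus Act57B-low libraries within each group (2 and 3 Rab5 RNAi, 2 and 2 Rab7-labelled, 1 and 3 control libraries) for 9 genes, without error bars because of the small numbers. The Rab5 RNAi bars of eya, so and gl point down to -1.11, -0.78 and -0.63, where the bars of the other groups point up.

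Among the 8 Act57B-low libraries alone, where 25.5% of all genes were called, Pph13 and oc were still lower in Rab5 RNAi. Pph13 had 18.1 to 19.6 FPKM in Rab5 RNAi, against 29.4 to 35.7 FPKM in controls (log2 -0.73), and oc had 4.66 to 7.20 FPKM against 8.65 to 8.91 FPKM. eya rose there, with 17.2 to 19.4 FPKM in Rab5 RNAi and 11.1 to 12.2 FPKM in controls (log2 0.58, SE 0.10, limma adjusted p = 0.0019). so had a log2 difference of 0.20 in these libraries and did not pass (adjusted p = 0.37), and gl had -0.06. In Act57B-low Rab7-labelled libraries eya was also higher than in these controls, by 0.45 on the log2 scale, but did not pass (SE 0.11, limma adjusted p = 0.053). Between Act57B-low Rab5 RNAi and Rab7-labelled libraries eya differed by 0.13 and did not pass (limma adjusted p = 0.51). A rise of eya particular to Rab5 RNAi was therefore not shown.

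The Rab7-labelled libraries were compared with the same controls. None of the 9 genes tested passed, against 3.21% of all genes. At an unadjusted p below 0.05 none of the 9 passed, against 17.3% of all genes. Under the 24 alternatives, among them limma voom on the recovered reads, the only call was that of Pph13 in the Act57B-low libraries. Some markers of other cells did move in this comparison. All 3 hemocyte markers, of blood cells, fell, with a summed level of 9.45 to 12.2 FPKM in Rab7-labelled libraries and 23.1 to 39.6 FPKM in controls. Crys, a lens protein gene and 1 of 4 markers of pigment and cone cells, rose (log2 1.52, limma adjusted p = 4.6e-04). The other 3 of these did not pass, and Pdh among them averaged 271.6 FPKM in Rab7-labelled libraries and 312.8 FPKM in controls. Their part in the values of the 10 genes was not tested.

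Pph13 had 27.3, 46.0, 48.1 and 29.6 FPKM in Rab7-labelled libraries 1 to 4, against 31.3, 35.7, 29.4 and 32.1 FPKM in controls. The Act57B-low replicates 2 and 3 lay above all controls, and of the Act57B-high ones replicate 1 lay below all controls and replicate 4 just inside their range. Over all libraries Pph13 differed by 0.19 on the log2 scale (95% interval -0.49 to 0.86, limma adjusted p = 0.84). Among Act57B-low libraries, with 4.33% of genes called, it was 0.54 (SE 0.10, adjusted p = 0.013).

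oc had 6.89, 8.30, 7.92 and 7.51 FPKM in Rab7-labelled libraries, below the control range of 8.65 to 9.05 FPKM in all 4. It differed by -0.19 on the log2 scale (95% interval -0.50 to 0.12, limma adjusted p = 0.56), and 6.89% of all genes lay below the controls without overlap in this comparison. eya had 17.8, 14.7, 18.6 and 18.1 FPKM in Rab7-labelled libraries, against 12.2, 12.2, 11.1 and 16.2 FPKM in controls, of which the highest lay inside the Rab7-labelled range. eya differed by 0.40 on the log2 scale (95% interval -0.17 to 0.97, limma adjusted p = 0.49). gl had 29.7, 25.6, 27.8 and 30.0 FPKM in Rab7-labelled libraries, with a log2 difference of 0.25 (95% interval -0.13 to 0.62, adjusted p = 0.53), and control 4 at 30.2 FPKM was above all of them.

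The other members were nearer to the controls. so had 10.5 to 15.8 FPKM in Rab7-labelled libraries (log2 0.02, 95% interval -0.43 to 0.46) and ey had 15.2 to 17.1 FPKM (-0.03, -0.26 to 0.20). dve had 5.71 to 7.45 FPKM (0.03, -0.24 to 0.30), ss had 1.24 to 1.45 FPKM (-0.07, -0.37 to 0.23) and pros had 17.2 to 21.6 FPKM (-0.15, -0.38 to 0.09). sens had 9, 35, 19 and 28 reads, which is 0.191 to 0.855 FPKM, and its mean of 0.515 FPKM ± 0.291 (SD, n = 4) did not pass against controls (two-sided exact permutation p = 0.31, smallest possible 0.029). It also did not pass in the fit with the filter at 0.1 FPKM (limma adjusted p = 0.57), which called 2.71% of genes.

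The third comparison sets Rab5 RNAi directly against the Rab7-labelled libraries, and shares the libraries of both earlier ones. Pph13, oc and gl fell and none of the other 6 passed, where 11.1% of all genes were called and 6.4% were called lower. Pph13 had a log2 difference of -1.42 (SE 0.30, limma adjusted p = 0.0084) and no overlap, as 6.57% of all genes lay below, with 6.76 to 19.6 FPKM in Rab5 RNAi and 27.3 to 48.1 FPKM in Rab7-labelled libraries. gl had -0.67 (SE 0.17, adjusted p = 0.020), with 12.8 to 23.4 FPKM in Rab5 RNAi and 25.6 to 30.0 FPKM in Rab7-labelled libraries. oc had -0.57 (SE 0.14, adjusted p = 0.017), and its groups overlapped through Rab5 RNAi replicate 2. The gl call was lost in the Act57B-low libraries, where 15.7% of genes were called (adjusted p = 0.066), and without Rab7-labelled replicate 1 or 4 (0.053 and 0.052), and the oc call in the Act57B-low libraries (0.063) and when only the 2 groups were fitted (0.059).

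The remaining genes had these differences. dve was at -0.31 (95% interval -0.57 to -0.05, limma adjusted p = 0.12), eya at -0.37 (-0.91 to 0.17), so at -0.18 (-0.60 to 0.25) and ss at -0.17 (-0.45 to 0.11). ey was at 0.17 (-0.05 to 0.39) and pros at 0.25 (0.02 to 0.47, adjusted p = 0.15). With plain read totals as the scaling, where 16.4% of genes were called, pros passed (log2 0.36, adjusted p = 0.032). That scaling moved the median of all genes in this comparison to 0.11, against 0.01 with the deposited scaling. sens had 21 reads in 5 Rab5 RNAi libraries and 91 in 4 Rab7-labelled ones with no overlap, and an exact two-sided permutation p of 0.016, the smallest possible. Here too the share of genes with so few reads that separate was not computed. In the fit with the filter at 0.1 FPKM, which called 7.89% of genes, it passed (log2 -0.45, limma adjusted p = 0.028).

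The spread between libraries differed in size among the genes. The coefficient of variation of Pph13 was 44.1% in Rab5 RNAi, 28.6% in Rab7-labelled libraries and 8.24% in controls. For eya it was 40.7% in Rab5 RNAi, 10.1% in Rab7-labelled libraries and 17.4% in controls, and for oc 28.6% in Rab5 RNAi, 7.89% in Rab7-labelled libraries and 1.91% in controls. Counting of reads alone gives 48.8% for sens in Rab5 RNAi, where 41.2% was observed.

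Several genes varied together within groups. After removal of group means, the Pearson correlation over the 13 libraries was 0.92 between so and eya, 0.92 between gl and eya and 0.84 between gl and so. Pph13 had 0.79 with oc, 0.78 with eya, 0.74 with so and 0.60 with gl, and dve had 0.79 with gl and 0.70 with eya. Outside these, ss and ey had 0.75 with each other and -0.69 and -0.60 with eya. These points share their library and its Act57B class, and are given as a description. Act57B itself had -0.84 with Pph13 and -0.63 with oc, but 0.76 with ey. These values pool the groups. In controls the 1 Act57B-high library was not lower than the mean of the others, with log2 differences of 0.0055 for Pph13 and 0.037 for oc. Over all 10038 genes the one most like Pph13 was inaD, the scaffold of the phototransduction complex, at 0.98. inaD had 13.3 to 48.7 FPKM in Rab5 RNAi, 122.2 to 231.8 FPKM in Rab7-labelled libraries and 219.4 to 235.6 FPKM in controls, and in both RNAi groups its lower values were in the same libraries as those of Pph13. The closest to gl was IRSp53 (0.96), to so kar (0.96), to eya Osi6 (0.98), to ey DIP-eta (0.95), to pros Sema1a (0.97), to dve gkt (0.94), to ss IntS11 (0.92) and to oc tra2 (0.91). Each of these, inaD included, is the highest of 10038 genes over only 13 libraries. High values can arise by chance in such a search, and the value to be expected was not computed.

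**Figure D4:**
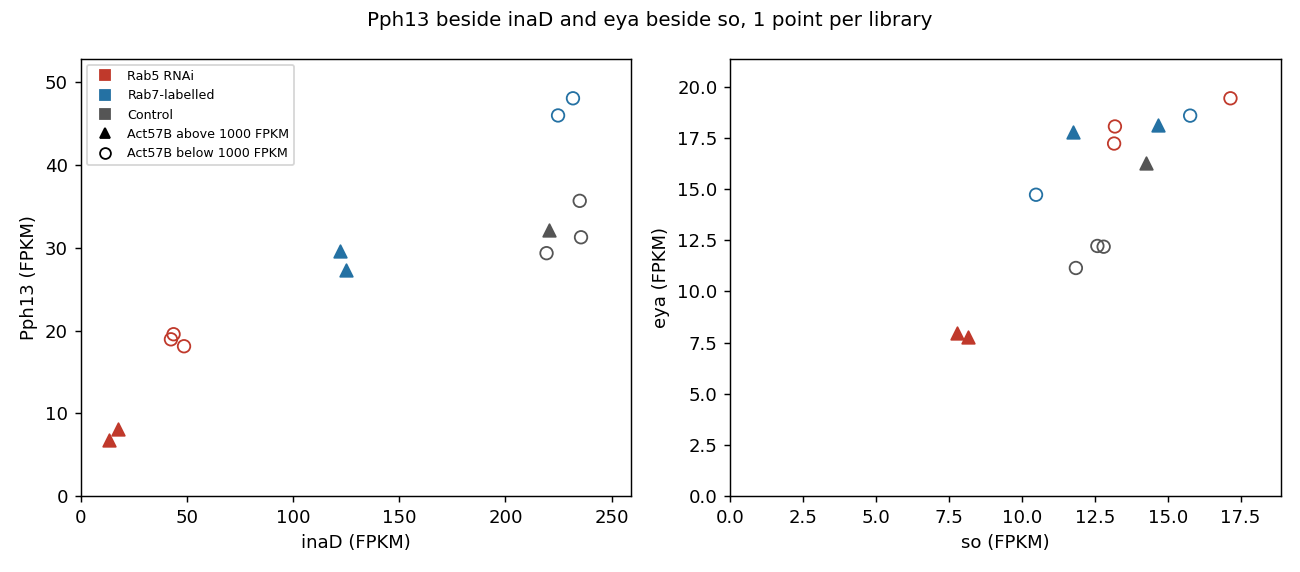
Left, Pph13 against inaD, and right, eya against so, in FPKM with 1 point per library; colours are groups, triangles Act57B-high and circles Act57B-low libraries. Act57B-high Rab5 RNAi libraries are lowest on both axes of both panels, with Pph13 at 6.76 and 8.10 FPKM and eya at 7.77 and 7.98 FPKM, and Rab5 RNAi as a whole has the lowest inaD.

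Other regulators of the eye were read from a list of 29, of which 27 were tested. In Rab5 RNAi against controls 2 rose and 2 fell, no larger a share than the 17.5% called over all genes, and the median of the log2 differences was 0.04. The pair of Spalt zinc finger genes, which set the inner photoreceptors R7 and R8 apart from the outer ones, fell: salm averaged 1.47 ± 0.193 FPKM in Rab5 RNAi (SD, n = 5) and 2.38 ± 0.261 FPKM in controls (SD, n = 4; log2 -0.45, SE 0.11, limma adjusted p = 0.010), and salr 5.31 ± 0.283 FPKM in Rab5 RNAi and 7.06 ± 0.541 FPKM in controls (log2 -0.35, SE 0.08, adjusted p = 0.0100). melt, which in R8 cells favours the opsin Rh5, rose, with 3.39 ± 0.541 FPKM in Rab5 RNAi against 1.92 ± 0.177 FPKM in controls (log2 0.58, SE 0.14, adjusted p = 0.013). lz, the Runx factor of R7, cone and pigment cells, rose as well, with 7.09 ± 1.08 FPKM in Rab5 RNAi against 4.60 ± 1.29 FPKM in controls (log2 0.55, SE 0.14, adjusted p = 0.019), a call that was lost without control 1, 2 or 3 (adjusted p 0.061 to 0.069). Markers of pigment and cone cells, which lz helps to form, went both ways. Of 4, Pdh and Cpr72Ec fell (log2 -5.18 and -3.36, limma adjusted p = 1.6e-07 and 0.0012). The others, w and Crys, had positive differences that did not pass (log2 0.48 and 0.18), and none of the 4 was at 0 in any library. Their summed level was 11.5 to 32.7 FPKM in Rab5 RNAi and 267.2 to 490.7 FPKM in controls. Most of the control sum was Pdh, with 235.7 to 463.2 FPKM. The part of these 4 markers in the results was not tested. None of the 27 regulators passed in Rab7-labelled libraries against controls, where 3.21% of all genes did, although lz passed there without control 4 (adjusted p = 0.017) and in the Act57B-low libraries (0.033). In Rab5 RNAi against Rab7-labelled libraries, with 11.1% of all genes called, 1 passed, hth, a homeobox gene of early eye growth named after its values were seen (log2 0.30, SE 0.08, adjusted p = 0.031). It was lost under 8 of the 24 alternatives, among them leaving out Rab5 RNAi 2 or 5 or Rab7-labelled 1, 3 or 4 (adjusted p 0.052 to 0.090) and the Act57B-low libraries (0.32). melt passed in that comparison with plain read totals (adjusted p = 0.039) and with the Act57B class as a covariate (0.016).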

How the data were processed

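RNA of 13 fly head libraries was read from FPKM values as the authors deposited them; each library took 1.3 ug of total RNA, per the labels' protocols. Per the submitters' processing notes CASAVA was used; aligner, counter, strand setting, build and annotation were not given in the sources used here. FPKM times gene length was a whole multiple of 1 step in all 182918 values above 0 (within 0.05), which gave back reads; the authors' totals equal median-of-ratios size factors, so the FPKM were already scaled across libraries. In the table of the whole series, 13 columns of sample values were left aside. Coordinates are those of the deposited table, and those of all 10 genes are the same in the BDGP6 annotation.

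limma 3.58.1 (R 4.3.3; trend, robust) was fitted to log2(FPKM + 1) for 10038 genes (mean FPKM of at least 1), all 3 groups together, with Benjamini-Hochberg adjustment over all genes and a threshold of 0.05. On simulated data it called 59.5% to 71.2% of genes changed 1.5-fold and 84.1% to 95.8% of those changed 2-fold, by comparison. Smaller changes can therefore go uncalled. sens, under the filter, had an exact permutation test (scipy 1.17.1). The members and lists were chosen with earlier results of these data known. The rule for names took all members, other eye regulators called in Rab5 RNAi against control, and the gene best correlated with each member.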

Additional observations from a re-analysis of the deposited data

Results flagged for a closer look

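Among 30 gene and group combinations, 1 had a library far from the others: gl in control 4, where the gap to the next control was 0.854 of the range of the 4 controls. Chance gives such a library in about 1 of 20 combinations. Control 4 was also the only Act57B-high control. Among controls, eya (16.2 FPKM), so (14.3), ey (19.1), oc (9.05) and dve (6.92) were highest in it too, while Pph13, ss, sens and pros were not. The range of oc over the controls was only 8.65 to 9.05 FPKM. The share of all genes that were highest in control 4 was not computed, so these ranks are a description only. The part of the Act57B class in the gl value was not tested.

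The difference between Act57B-high and Act57B-low libraries varied between groups for eya, gl and Pph13, by limma interaction tests chosen after the split was seen in the same libraries, so they are no independent evidence of it. Rab5 RNAi minus Rab7-labelled, these differences of differences were -1.23 for eya, -0.788 for gl and -0.536 for Pph13 on the log2 scale. Rab5 RNAi minus control, they were -1.54 for eya, -1.25 for Pph13, -1.09 for gl and -0.968 for so, with limma adjusted p from 1.1e-04 to 0.038. The values against control rest on 1 Act57B-high library with no spread of its own, and the gene so passed only there (limma adjusted p = 0.060 against Rab7-labelled).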

How the results depend on the processing

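Each difference of the 9 tested genes was recomputed under 24 alternatives, and 623 of 648 values kept their direction and side of the threshold; the calls that changed for members stand beside their results. Limits come from low reads for sens and ss and from 4 or 5 libraries per group. The count of called genes stayed within 1.5 times of 1761 for Rab5 RNAi against control. For Rab7-labelled against control it was 322, and 559 with only those 2 groups, 629 with the Act57B class as covariate, and 167 to 381 leaving out 1 library (below 200 without Rab7-labelled 1 or 4 or control 1, 2 or 3). For Rab5 RNAi against Rab7-labelled it was 1111, and 682, 1739 and 725 (without Rab7-labelled 3) to 1064 in the same settings. Plain read totals raised the share of higher calls to 67.6% from 47.1% for Rab5 RNAi against control and to 74.0% from 42.2% against Rab7-labelled; the cause was not tested.

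Values that changed sign were small or fell in the Act57B-low libraries alone: there so was 0.20 against control and 0.15 against Rab7-labelled in Rab5 RNAi, eya 0.13 against Rab7-labelled, and in Rab7-labelled against control ey 0.0055 and melt -0.057. With plain read totals so was -0.0041 in Rab7-labelled against control and salr 0.034 in Rab5 RNAi against Rab7-labelled. Leaving out 1 library, eya in Rab5 RNAi against control ran from -0.10 to 0.20; in Rab7-labelled against control dve ran from -0.032 to 0.079, so from -0.071 to 0.11 and ey from -0.056 to 0.032; and lz between the RNAi groups from -0.022 to 0.13. sens against control did not pass limma with a filter of 0.1 FPKM or with none (log2 -0.28 in both).

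Same-numbered libraries of different groups had correlations of their deviations from -0.16 to 0.30. Differently numbered libraries were not compared in this way, so whether the numbers pair the libraries was not tested. With the number as a block, which leaves out Rab5 RNAi 5, 1949, 424 and 1171 genes were called in the 3 comparisons. edgeR on the recovered reads was not run, since the deposited unit is FPKM.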
